A study of Homo sapiens with 10 samples.

Results

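The comparison described here set Panc1 cells transduced with the Δ486 mutant of KLF11 against Panc1 cells transduced with wild type KLF11, on 2 arrays each, and its members were the 20961 transcript clusters with a gene symbol among the 28869 on the array. Panc1 is an established epithelial line from a human pancreatic carcinoma. In each of 5 conditions (empty vector, KLF11, KLF11-A347S, KLF11-486 and KLF11-EAPP), cells received adenovirus at a multiplicity of infection (MOI) of 150, and total RNA was taken 48 h later. All arrays of the comparison thus came from virus-treated cells that carried an epitope-tagged KLF11 beside their own KLF11 gene, and the design had no untransduced cells. The protocol text described each RNA as pooled from several cultures and hybridised in technical duplicate, whereas the sample titles call the arrays biological replicates, so that every p-value below measures only the spread between arrays, which may be technical. The study took 1 cell line, 1 time and 1 viral dose.

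KLF11 is a zinc finger transcription factor that binds GC-rich promoter sequences and carries separate modules for chromatin partners. A module near its C-terminus couples it to heterochromatin protein 1 (HP1), which recruits the histone methyltransferases that place repressive methylation on histone H3 at lysine 9, and the mutant is a deletion that starts at residue 486 and removes this coupling. The A347S and EAPP mutants, which uncouple WD40 proteins and the SIN3-histone deacetylase complex, and the empty vector serve below to show on which side of the comparison the other conditions lay. The question addressed is which transcripts differ between cells given Δ486 and cells given wild type KLF11. Both kept their own KLF11 gene, and coupling to HP1 was not measured on these arrays.

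Values are log2 expression levels of a transcript cluster, the set of probes that reads 1 transcript, and a difference of 1 on this scale is a change of 2-fold. Where a gene had several clusters, the one with the highest mean over the 10 arrays stood for it, which gave 18377 genes. Array medians lay between 6.81 and 6.87, and the 2 arrays of a condition correlated at 0.996 to 0.997 across clusters. The median standard error of a difference was 0.095. KLF11 itself read 8.37 and 7.75 with empty vector, 8.82 and 8.85 with wild type KLF11 and 8.72 and 8.83 with Δ486. The transduced conditions being compared overlapped, and their difference was -0.06 (95% confidence interval -0.42 to 0.29), so no unequal KLF11 transcript level was detectable between them. The sources do not state whether the probes read the viral transcript. At the protein level, the study describes a Western blot in which wild type KLF11 and the mutants were overexpressed to a similar degree.

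No transcript cluster passed the study-wide test, an adjusted p under 0.05 in limma together with a 1.5-fold difference (0 of 20961, percent called 0). At an unadjusted p under 0.05, 2211 clusters (10.5%) differed, 1422 higher with Δ486 (6.78%) and 789 lower (3.76%). With the 1.5-fold added, 46 clusters (0.219%) were left, 34 higher (0.162%) and 12 lower (0.0572%), and on all 46 the arrays of the conditions did not overlap. Over all clusters tested, both Δ486 arrays lay above both wild type arrays in 4861 (23.2%) and below them in 4100 (19.6%). Genes named below for the size of their difference were chosen without overlap between these arrays. For them a lack of overlap is therefore no added support. A limma fit with a variance trend and robust moderation called 6 clusters (0.0286%), 5 higher and 1 lower. They were ACADSB, CA2, CXCR4, FOXO4 and CALCRL, and a cluster that carries several gene symbols. The split of the 2211 into higher and lower depended on the scaling, as it was 957 higher and 986 lower after cyclic loess, 1004 and 934 after quantile normalization, and 993 and 1308 with each array centred on its median.

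The differences also depended on the level of expression. When the clusters were split by level into 4 groups of equal size, the median difference was 0.05 and 0.08 in the 2 dimmer groups and -0.01 and -0.04 in the 2 brighter ones, and after cyclic loess the 4 medians lay between -0.02 and 0.01. Of the 46 clusters, 41 lay below the median level of 6.84, and these comprised 30 of the higher and 11 of the lower ones. After cyclic loess, 20 clusters were higher and 21 lower at an unadjusted p with 1.5-fold, in place of 34 and 12, and the numbers were 23 and 19 after quantile normalization and 25 and 16 with arrays centred on the median. For several weakly detected genes and lists the cyclic loess value is given beside the main one.

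**Figure D1:**
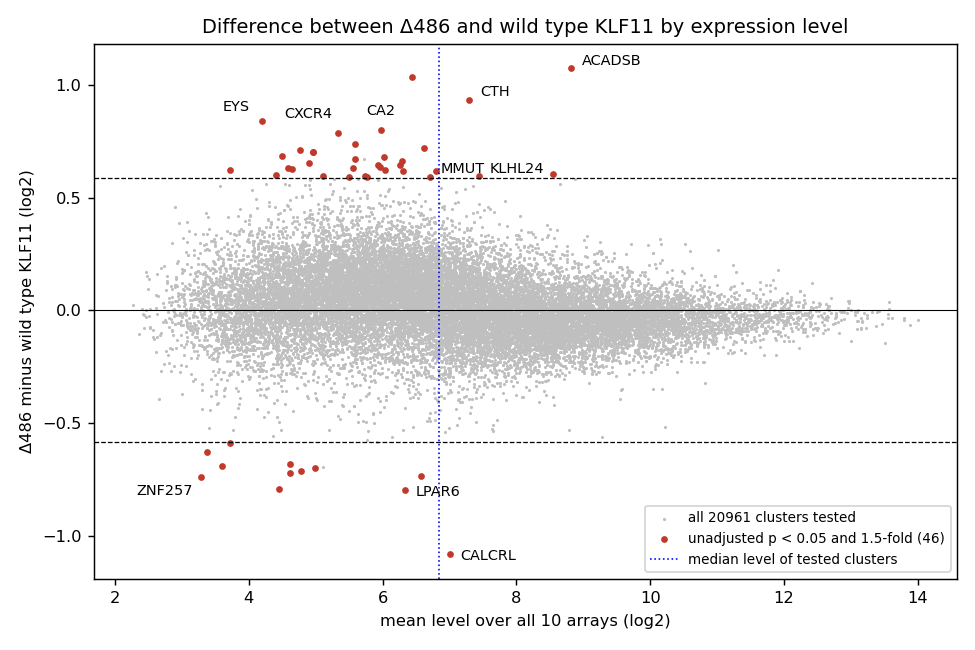
Difference between Δ486 and wild type KLF11 (log2, vertical axis) against the mean level over all 10 arrays (log2, horizontal axis), 1 point per transcript cluster, with dashed lines at 1.5-fold. The 46 red clusters passed an unadjusted p under 0.05 and 1.5-fold, 41 of them lie left of the median level (dotted line), and the grey cloud sits slightly above 0 on the left and slightly below 0 on the right.

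ACADSB, the short and branched chain acyl-CoA dehydrogenase that acts in isoleucine breakdown, showed the largest upward difference with Δ486 among the genes named here. Its level was 8.23 and 7.98 with wild type KLF11, 8.98 and 9.38 with Δ486, 8.68 and 8.70 with empty vector, 9.25 and 9.23 with A347S, and 8.96 and 8.85 with EAPP. The wild type arrays were thus the lowest of the 10, and the Δ486 arrays lay above both the wild type and the empty vector arrays. The difference was 1.07 ± 0.13 (SE, n = 2 and 2), a fold of 2.1, with a limma adjusted p of 0.0812 and of 0.00302 with the variance trend and robust moderation.

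CTH, cystathionine gamma-lyase, which makes cysteine in transsulfuration, was also higher with Δ486. Its arrays read 6.96 and 6.63 with wild type KLF11 and 7.56 and 7.90 with Δ486. The empty vector arrays, at 7.06 and 7.26, lay between these, and the A347S arrays, at 7.64 and 7.69, lay within the Δ486 range. The EAPP arrays read 7.34 and 6.86, the second within the wild type range. The difference was 0.93 ± 0.17 (limma adjusted p = 0.21), or 1.91-fold.

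CALCRL, the receptor subunit for adrenomedullin and calcitonin gene-related peptide, differed most in the other direction. It read 7.86 and 7.64 with wild type KLF11 and 6.49 and 6.85 with Δ486. The remaining 6 arrays, at 6.82 and 6.95 (empty vector), 6.98 and 6.95 (A347S) and 6.92 and 6.54 (EAPP), all lay below the wild type arrays, so the wild type condition stood apart from the other conditions on this gene. The difference was -1.08 ± 0.15, a 2.12-fold lower level, with a limma adjusted p of 0.121 (0.0115 with trend and robust moderation).

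Several genes were higher with Δ486 than with both wild type KLF11 and empty vector. CA2, carbonic anhydrase 2, read 5.43 and 5.51 with empty vector, 5.75 and 5.84 with wild type KLF11, 6.62 and 6.57 with Δ486, 6.12 and 6.21 with A347S, and 5.77 and 5.91 with EAPP. The Δ486 arrays were the highest of the 10, and the A347S arrays came next. The difference of 0.80 ± 0.08, 1.74-fold, had the smallest adjusted p of the comparison (0.0546), and it was 0.72 after cyclic loess.

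CXCR4, the receptor of the chemokine CXCL12, read 5.21 and 5.01 with wild type KLF11 and 5.81 and 5.98 with Δ486. The A347S arrays, at 5.83 and 5.96, lay within the Δ486 range, and the empty vector arrays, at 4.80 and 4.73, were the lowest. The difference was 0.79 ± 0.10 (adjusted p = 0.0812), or 0.71 after cyclic loess.

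FOXO4, a forkhead transcription factor held out of the nucleus by insulin and PI3K signalling, read 6.04 and 6.09 with wild type KLF11 and 6.67 and 6.79 with Δ486. The wild type arrays differed little from the empty vector arrays at 6.03 and 6.01, and A347S, at 6.37 and 6.43, lay between. The difference was 0.66 ± 0.09 (adjusted p = 0.121), or 0.59 after cyclic loess. CA2, CXCR4 and FOXO4 all lay below the median level.

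Among genes above the median level, NARF, a prelamin A binding protein, read 7.63 and 7.65 with wild type KLF11 and 8.16 and 8.09 with Δ486. SELENOK, a selenoprotein of the endoplasmic reticulum, read 8.54 and 8.48 against 8.97 and 9.17. The differences were 0.49 ± 0.07 for NARF and 0.56 ± 0.09 for SELENOK. Both passed an adjusted p under 0.05 with trend and robust moderation (0.0452 and 0.0292) but not the 1.5-fold.

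KLHL24, an adaptor of a cullin ubiquitin ligase, and ROPN1L, a protein of the sperm flagellum, were already higher with wild type KLF11 than with empty vector and higher again with Δ486. KLHL24 read 6.65 and 6.77 with empty vector, 7.68 and 7.33 with wild type KLF11 and 7.96 and 8.24 with Δ486. ROPN1L read 5.81 and 6.10, 8.01 and 7.84, and 8.35 and 8.44 in the same order. No arrays of these conditions overlapped, and the differences between Δ486 and wild type KLF11 were 0.59 ± 0.16 and 0.47 ± 0.11.

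SAMTOR, which senses S-adenosylmethionine for TORC1, and PEG10, an imprinted gene of retrotransposon origin, were instead lower with wild type KLF11 than with empty vector. SAMTOR had a mean of 6.89 with empty vector, 6.47 with wild type KLF11 and 7.01 with Δ486, and the arrays within each of these conditions differed by less than the conditions did. PEG10 read 7.31 and 7.28, 6.69 and 6.74, and 7.18 and 7.19. On both genes the Δ486 arrays lay nearer to the empty vector arrays than to the wild type arrays. The remaining genes named for a higher level with Δ486 were MROH6, SNORA80B, SMIM24 and MIOX, the inositol oxygenase, with differences of 0.55, 0.54, 0.52 and 0.48, and their empty vector means lay nearer to wild type KLF11 than to Δ486.

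DSE, the epimerase that turns chondroitin into dermatan sulfate, and GPR19, an orphan G protein-coupled receptor, were lower with Δ486 than with wild type KLF11 and higher than with empty vector. DSE read 6.38 and 6.27 with empty vector, 7.70 and 7.41 with wild type KLF11 and 6.95 and 7.08 with Δ486. GPR19 read 6.18 and 6.20, 7.45 and 7.33, and 6.97 and 6.93. The Δ486 arrays lay between the other conditions without overlap, and the differences from wild type KLF11 were -0.54 ± 0.11 and -0.44 ± 0.09.

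A further set had a lower mean with Δ486 than with both wild type KLF11 and empty vector. TBC1D5, a GTPase-activating protein for RAB7, read 7.36 and 7.38 with wild type KLF11 and 6.90 and 6.99 with Δ486, against 7.60 and 7.56 with empty vector. FANCB, of the Fanconi anemia core complex, read 7.30 and 7.44 against 6.81 and 7.02, with 7.69 and 7.70 for empty vector. On both genes the Δ486 arrays lay below those of these other conditions, and the differences were -0.43 ± 0.08 and -0.46 ± 0.10.

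ALDH1L2, the mitochondrial formyltetrahydrofolate dehydrogenase, differed by -0.52, SPOPL, a cullin adaptor, by -0.49, and PDCL3, a chaperonin cofactor, by -0.42. P2RX4, an ATP-gated channel, differed by -0.44, and DPH6, a diphthamide synthesis enzyme, by -0.48. The gene EAPP, which encodes an E2F-associated phosphoprotein and is unrelated to the mutant of the same name, differed by -0.49. RNU5D-1, a copy of the U5 spliceosomal RNA, differed by -0.56, but U5 copies are nearly identical and the array may not tell them apart. On each of these 7 genes the first Δ486 array was the lowest of the 4 arrays compared, and without it the differences ranged from -0.35 to -0.21.

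Below the median level, EYS, a retinal matrix protein, and PIWIL4, of the piRNA pathway, were higher with Δ486. EYS read 3.75 and 3.78 with wild type KLF11 and 4.80 and 4.41 with Δ486, and PIWIL4 read 5.52 and 5.14 against 5.93 and 6.20. The differences were 0.84 and 0.74, or 0.81 and 0.65 after cyclic loess. LPAR6, a lysophosphatidic acid receptor, had a mean of 6.79 with wild type KLF11 and read 5.93 and 6.05 with Δ486, a difference of -0.80, or -0.87 after cyclic loess. ZNF257, a zinc finger gene, read 3.57 and 3.48 against 2.80 and 2.78, near the lower end of the scale. SLC9B1, an ion exchanger gene with a pseudogene copy that the probes may share, differed by -0.79, and LOC100134868 by -0.74.

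**Figure D2:**
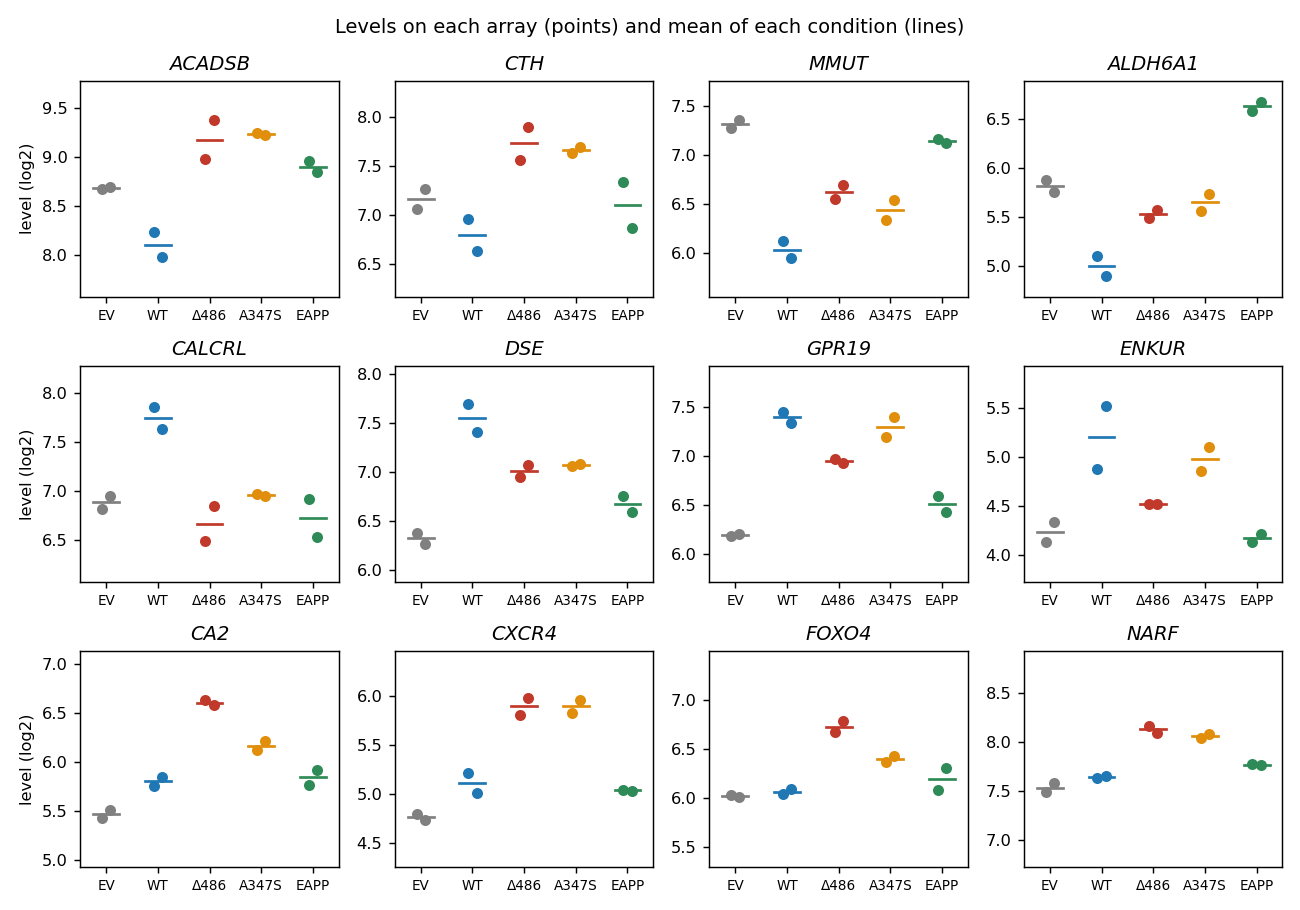
Level of 12 genes (log2, vertical axis, 2.2 units in every panel) on each of the 10 arrays, with points for arrays and lines for the mean of a condition (EV, empty vector; WT, wild type KLF11). ACADSB and CTH have their lowest mean with wild type KLF11, CALCRL is highest with it, MMUT lies between wild type and empty vector with Δ486, and CA2, CXCR4, FOXO4 and NARF are higher with Δ486 than with wild type KLF11.

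Among the gene lists examined, the breakdown of branched-chain amino acids and propionate held 2 of the 46 clusters, ACADSB and MMUT. Of its 27 measured genes, 6 were higher at an unadjusted p under 0.05 (22.2%, against 6.89% of all genes) and 2 were lower (7.41%, against 3.9%), and none passed the adjusted test. The median of the list was 0.03, against 0.01 over all genes. In this and the following lists, higher and lower refer to Δ486 against wild type KLF11 at an unadjusted p under 0.05, shares over all genes are those given here, and no gene of any list passed the adjusted test. The lists were chosen with earlier results of these data known, so their shares beside those of all genes are a description only. The arrays did not overlap, with Δ486 higher, on 8 of the 27 genes (all genes, 23.2%) and, with Δ486 lower, on 2 (all genes, 20.1%).

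MMUT, the methylmalonyl-CoA mutase that carries propionate carbon into the citric acid cycle, read 7.27 and 7.36 with empty vector, 6.12 and 5.95 with wild type KLF11, 6.55 and 6.70 with Δ486, 6.34 and 6.54 with A347S, and 7.16 and 7.12 with EAPP. Δ486 lay between wild type KLF11 and empty vector, without overlap. The difference from wild type KLF11 was 0.59 ± 0.10, 1.51-fold (adjusted p = 0.207), and that from empty vector was -0.69.

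ALDH6A1, the methylmalonate semialdehyde dehydrogenase of valine breakdown, read 5.87 and 5.75 with empty vector, 5.10 and 4.90 with wild type KLF11 and 5.49 and 5.57 with Δ486. Here too the Δ486 arrays lay between the others, with a difference from wild type KLF11 of 0.53 ± 0.10 (adjusted p = 0.21), or 0.45 after cyclic loess. The EAPP arrays, at 6.58 and 6.68, were the highest.

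The other genes higher at the unadjusted p were BCKDHB, a subunit of the branched-chain keto acid dehydrogenase, ACAD8, the isobutyryl-CoA dehydrogenase, and MCCC2, a subunit of methylcrotonyl-CoA carboxylase, with differences of 0.25, 0.25 and 0.24. IVD, the isovaleryl-CoA dehydrogenase of leucine breakdown, and BDH2, a hydroxybutyrate dehydrogenase, were lower by 0.21 and 0.35 on the log2 scale. The transaminases that open the pathway did not pass, with BCAT1 at 0.02 (95% confidence interval -0.20 to 0.25) and BCAT2 at -0.16 (-0.37 to 0.04).

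**Figure D3:**
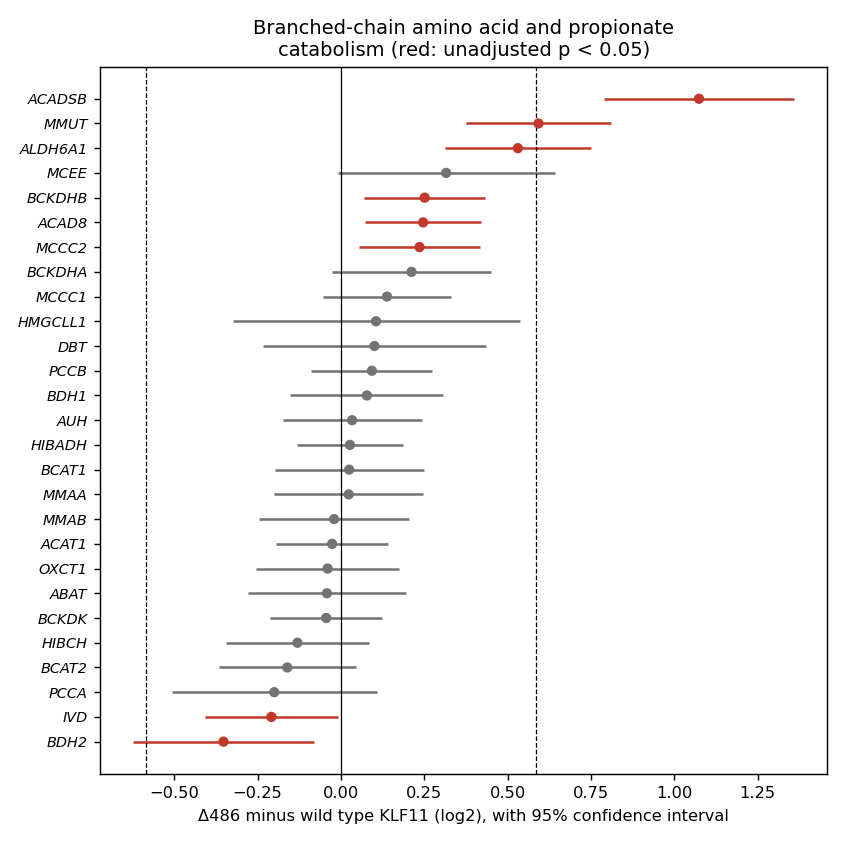
Difference between Δ486 and wild type KLF11 (log2, horizontal axis) for the 27 measured genes of branched-chain amino acid and propionate breakdown, with 95% confidence intervals and dashed lines at 1.5-fold. The 8 red genes passed an unadjusted p under 0.05, and ACADSB, MMUT and ALDH6A1 lie to the right of the remaining genes.

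The promoters of MMUT, ALDH6A1 and CALCRL are shown because the study gives CCCCGC and CCCCAC as the sequences KLF11 binds. Each run is the 250 bases upstream of the RefSeq start on the strand of the gene (GRCh38.p14), and capitals mark a match to either motif or to its reverse complement, GCGGGG or GTGGGG. They are MMUT at chr6:49463254-49463503 (minus strand), ALDH6A1 at chr14:74084454-74084703 (minus) and CALCRL at chr2:187448253-187448502 (minus).
MMUT: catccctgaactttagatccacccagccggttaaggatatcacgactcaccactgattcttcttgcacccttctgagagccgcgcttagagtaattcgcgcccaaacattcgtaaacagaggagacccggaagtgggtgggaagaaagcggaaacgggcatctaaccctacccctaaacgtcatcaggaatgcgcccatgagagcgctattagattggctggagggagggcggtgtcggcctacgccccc
ALDH6A1: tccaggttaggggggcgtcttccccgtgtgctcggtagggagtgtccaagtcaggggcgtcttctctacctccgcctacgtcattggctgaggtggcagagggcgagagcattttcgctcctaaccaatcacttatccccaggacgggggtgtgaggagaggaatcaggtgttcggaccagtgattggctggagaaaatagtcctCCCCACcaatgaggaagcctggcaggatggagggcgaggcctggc
CALCRL: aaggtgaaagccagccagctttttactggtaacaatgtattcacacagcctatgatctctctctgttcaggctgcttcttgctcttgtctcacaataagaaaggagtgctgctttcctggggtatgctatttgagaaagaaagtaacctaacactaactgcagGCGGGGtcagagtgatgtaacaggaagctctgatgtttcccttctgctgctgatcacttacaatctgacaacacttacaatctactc
ALDH6A1 and CALCRL held 1 match each, and MMUT held 0. A match was found in 54.1% of the 35116 promoters of the RefSeq table and in 65.7% of the 14210 array genes with a promoter in it. Among the genes named by size of difference, 8 of the 11 higher and 7 of the 11 lower with a promoter had a match, and in the branched-chain and propionate list 21 of 25 did. A match is a description of the letters and not a binding site. The study measured KLF11 binding over a wider span on both sides of the start. It places most binding farther from the start than these 250 bases. A count of 0 here therefore covers only the window shown.

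Most other metabolic lists held a few genes that differed in each direction, whereas those of fatty acid and triglyceride synthesis were mainly lower with Δ486. In fatty acid and triglyceride synthesis, 6 of 24 genes were lower (25%) and 1 was higher, with a median of -0.05. ELOVL1, a fatty acid elongase, read 8.64 and 8.54 with wild type KLF11 and 8.28 and 8.30 with Δ486, and ACACA, the acetyl-CoA carboxylase, read 7.54 and 7.69 against 7.33 and 7.35. No arrays overlapped, and the differences were -0.31 ± 0.07 and -0.28 ± 0.08 (adjusted p = 0.324 and 0.383). The others lower were LPIN1, SCD, MID1IP1 and FADS2, by 0.16 to 0.23 on the log2 scale, and the one higher was ACSL4, a ligase for arachidonate, at 0.23. FASN, the fatty acid synthase, differed by -0.05 (-0.23 to 0.13).

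In the citric acid cycle and pyruvate entry, 2 of 30 genes were higher and 2 lower, with a median of -0.04. IDH1, the cytosolic isocitrate dehydrogenase, read 11.21 and 11.19 with empty vector, 9.78 and 9.77 with wild type KLF11, 9.40 and 9.44 with Δ486 and 9.21 and 8.99 with A347S. The level with Δ486 lay below that with wild type KLF11, with a difference of -0.35 ± 0.08 (adjusted p = 0.321). MPC1, which forms part of the carrier for pyruvate into mitochondria, read 8.48 and 8.46 with empty vector, 6.71 and 6.93 with wild type KLF11 and 7.07 and 7.40 with Δ486. It lay between the other conditions, at 0.42 ± 0.13 above wild type KLF11. The other genes were PC at 0.19 and PDHB at -0.22.

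In hypoxia and glycolysis, 3 of 36 genes were higher and 2 lower, with a median of -0.02. HK2, a hexokinase, read 6.73 and 6.72 with wild type KLF11 and 7.15 and 7.20 with Δ486, beside 7.06 and 7.12 with empty vector. NDRG1, a hypoxia-responsive gene, read 6.27 and 6.04 against 6.74 and 6.52, and SLC2A1, the glucose transporter, read 7.58 and 7.85 against 8.06 and 7.92. None of the 3 overlapped, and the differences were 0.45, 0.48 and 0.28 (0.41, 0.40 and 0.30 after cyclic loess). In serine, folate and polyamine metabolism, 2 of 32 were higher and 3 lower, namely CTH and AMD1 (0.20), and SHMT1 (-0.24), SAT1 (-0.26) and MTHFD2L (-0.36).

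Beta-oxidation held 1 of 31 genes higher (PEX16, 0.24) and 1 lower (ECI2, -0.28). Cholesterol synthesis held 1 of 22 lower, SREBF2, which encodes the sterol-regulated factor of that pathway, at -0.26. Biogenic amine metabolism held 3 of 25 higher and 2 lower, among them HDC, which makes histamine, at 0.49 ± 0.09, and HNMT, which inactivates it, at -0.40 ± 0.10 (0.42 and -0.47 after cyclic loess). HDC read 4.87 and 5.08 with wild type KLF11 and 5.44 and 5.50 with Δ486, and HNMT read 5.14 and 5.26 against 4.73 and 4.87, both in the lower range of levels. In heme synthesis and iron, SLC25A38, a mitochondrial glycine carrier, and UROD were higher by 0.35 and 0.21, and ACO1 was lower at -0.17, of 22.

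No transcript of the machinery to which the deleted module couples KLF11 passed even the unadjusted test. Of 26 genes for HP1 proteins and histone H3 lysine 9 methylation, 0 were higher and 0 lower at an unadjusted p under 0.05, and the median was -0.02. The arrays did not overlap, with Δ486 higher, on 3 of the 26 genes (all genes, 23.2%). With Δ486 lower, they did not overlap on 6, CBX5 among them (all genes, 20.1%). CBX5, which encodes HP1 alpha, read 10.79 and 10.92 with wild type KLF11 and 10.63 and 10.77 with Δ486, a difference of -0.15 (95% confidence interval -0.34 to 0.04). CBX1 and CBX3 differed by -0.01 (-0.20 to 0.18) and -0.04 (-0.22 to 0.15), SUV39H2 by 0.11 (-0.07 to 0.30), and EHMT2, which encodes G9a, by -0.11 (-0.30 to 0.08). All 5 intervals lie within a 1.5-fold difference in either direction.

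In the SIN3-deacetylase list, SAP130 and MXI1 were higher by 0.23 and 0.24 (2 of 21). Of 25 KLF and SP factors, 5 were higher and 2 lower, with a median of 0.06, or 0.02 after cyclic loess. KLF9 read 6.04 and 6.11 with wild type KLF11 and 6.34 and 6.34 with Δ486, and KLF3 read 6.73 and 6.85 against 6.49 and 6.53. Neither overlapped, with differences of 0.27 and -0.28, and KLF10, the closest relative of KLF11, differed by -0.20. Zinc finger and cancer-testis genes are known targets of H3 lysine 9 methylation. Of 438 numbered zinc finger genes, 20 were higher (4.57%) and 12 lower (2.74%), with a median of 0.00. Of 42 cancer-testis genes, 4 were higher (9.52%) and 1 lower (2.38%), with a median of 0.08, or 0.01 after cyclic loess. Core and linker histones held 4 of 63 higher and 2 lower.

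Signalling lists held few members. BMP4 and BMP2, ligands of the BMP pathway, were higher and the receptor gene BMPR2 and the mediator SMAD2 were lower, of 35 measured. BMP4 read 5.02 and 5.08 with wild type KLF11 and 5.69 and 5.52 with Δ486 (difference 0.56 ± 0.12, or 0.48 after cyclic loess), and BMPR2 read 8.32 and 8.44 against 7.96 and 8.18 (-0.31 ± 0.11). Their arrays did not overlap. In insulin, PI3K and TOR signalling, FOXO4, GYS1 (0.30) and IRS2 (0.17) were higher, of 30. In the EGFR-MAPK list EGF was higher at 0.23 and EGR3 lower at -0.23, of 35.

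Of 45 genes of the interferon and innate response, 0 were higher and 2 lower, TNFAIP3 (-0.28) and IFIT3 (-0.23), with a median of -0.07 that was the same after cyclic loess. Of 36 genes of epithelial junctions and the mesenchymal transition, 4 were lower, and CLDN4, a tight junction claudin, read 7.07 and 7.01 against 6.79 and 6.75. The others were CTNNA1 (-0.24), DSG2 (-0.19) and ITGA3. In the lysosome and sphingolipid list 6 of 38 were lower, among them CTSB (-0.25) and SGPL1 (-0.32), and 2 were higher, with NEU1, the sialidase, at 0.32 ± 0.08.

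Cell cycle lists held few members, with 1 of 34 mitotic genes higher (CDC25C, 7.55 and 7.56 against 7.95 and 8.03, 0.44 ± 0.11) and 1 of 42 DNA replication genes higher (CDC6, 0.18) beside 2 lower (PRIM1, -0.19, and POLE2, -0.17). Of 23 p53 targets, 4 were higher, with PPM1D at 0.31, and 2 lower. Stress lists held 3 of 28 genes higher for ATF4, with ATF3 at 0.34 (0.27 after cyclic loess), and 1 lower (SLC7A5), 1 of 25 for protein folding (EIF2AK3, 0.33), 0 of 19 for heat shock proteins in either direction, and 0 of 32 for NRF2 and glutathione, where NQO2 was lower at -0.27. The respiratory chain, mitochondrial ribosome and cytosolic ribosome lists held no gene higher and 2 of 73, 3 of 73 and 1 of 61 lower.

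Of 70 genes of motile cilia and the sperm flagellum, 6 were higher and 3 lower, with a median of 0.04, or -0.02 after cyclic loess. ENKUR, a flagellar protein, read 4.13 and 4.33 with empty vector, 4.88 and 5.52 with wild type KLF11 and 4.52 and 4.51 with Δ486. The wild type arrays lay above the rest of these but far from each other, and the difference of -0.68 ± 0.18 was -0.36 without the second of them. Of 45 genes of intraflagellar transport, TCTN3 and IFT140 were among 4 higher (0.33 and 0.23) and MKS1 among 2 lower (-0.37).

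Of the 12 measured markers of pancreatic carcinoma epithelium, 8 lay at or above the median level, and mean levels ran from 3.91 to 13.0. Among the bright ones, KRT18 read 12.89 and 13.02 with wild type KLF11 and 12.81 and 12.83 with Δ486. KRT8 read 12.31 and 12.50 against 12.41 and 12.29. Of these 12 markers, 1 was higher (GATA6, 0.30) and 1 lower (CLDN4). Some lists of weakly detected genes had medians above 0. Of 8 endocrine markers 4 were higher, including PDX1 (6.56 and 6.49 against 7.10 and 6.74), with a median of 0.17, and of 48 keratins 4 were higher, with a median of 0.09. After cyclic loess these medians were 0.12 and 0.02. The endocrine hormone genes GCG and SST differed by 0.00 and 0.04, and the summed level of the endocrine list was 8.99 on both wild type arrays and 9.13 to 9.27 on the Δ486 arrays. Acinar markers held 1 of 11 lower (REG1A), fibroblast markers 1 of 11 higher (ACTA2, 6.19 and 6.55 against 6.92 and 6.86), and blood and endothelial markers 1 of 10 higher (CD3E, 0.22). The summed levels were 9.18 to 9.19 against 9.23 to 9.31 (acinar), 9.58 to 9.65 against 9.65 to 9.71 (fibroblast) and 10.07 on both wild type arrays against 10.07 to 10.25 (blood and endothelial). In these lists all but 2, 1 and 1 genes lay below the median level. The arrays read bulk RNA of 1 line, Panc1. These sums describe transcript levels and give neither a number of cells of a type nor the RNA per cell.

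**Figure D4:**
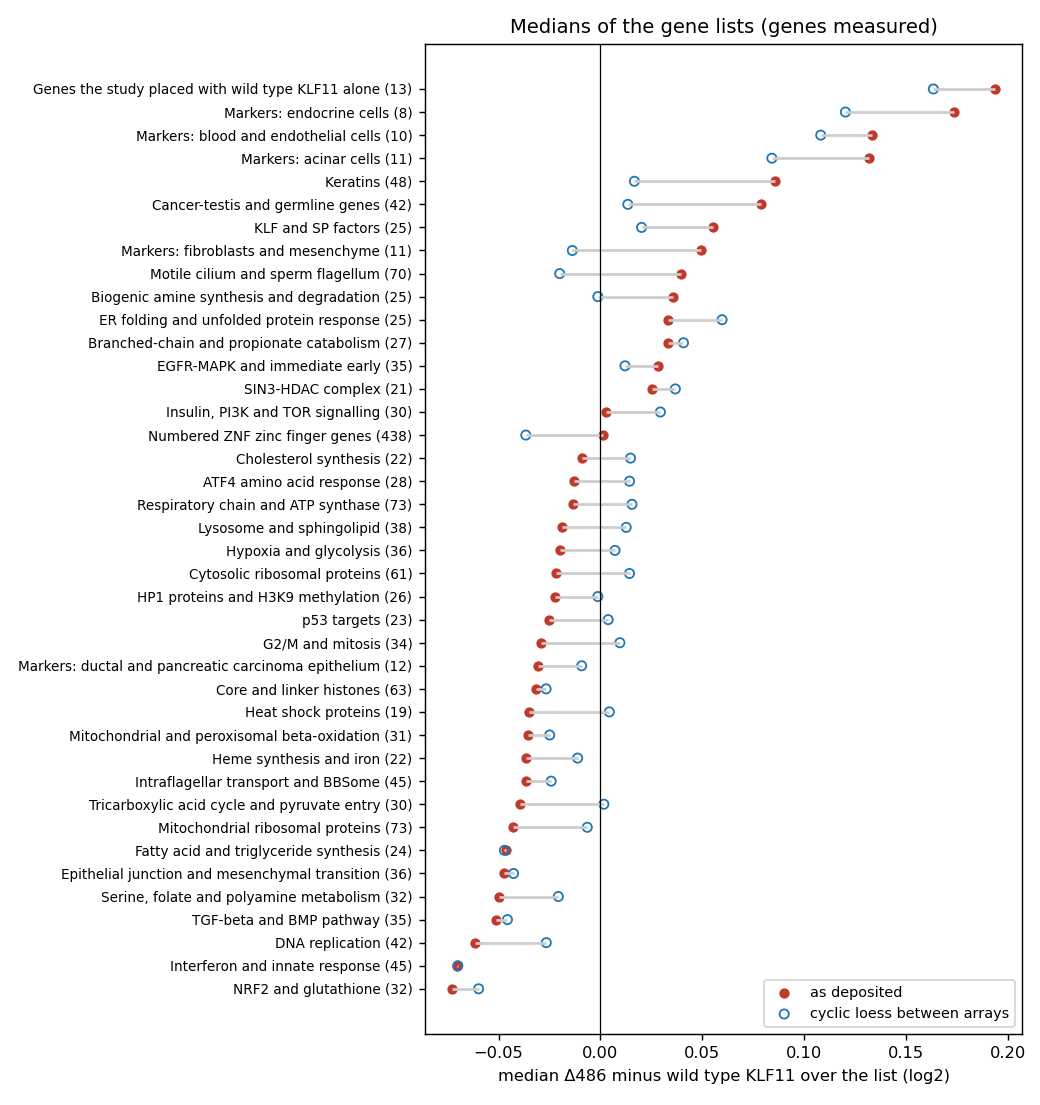
Median difference between Δ486 and wild type KLF11 (log2, horizontal axis) of each of 40 gene lists, with the number of genes measured in brackets, for the values as deposited (filled) and after cyclic loess (open). Most medians lie within 0.1 of 0, and the lists of weakly detected genes, such as keratins, move toward 0 under cyclic loess.

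The study placed 13 measured genes in a group that, by its own criteria, differed from empty vector with wild type KLF11 alone. A further entry of its list is no gene symbol and was left out. The limma fit used here did not give this grouping for every gene. RPL27A, RAET1L, ALMS1P1 and USP35 missed an adjusted p under 0.05 for wild type KLF11 against empty vector (0.0853 to 0.547). GOT1, RBM47, ZNF277, GYS1, CFAP91 and AOC2 also passed it for Δ486 (0.00245 to 0.0384), and EFR3B for A347S (0.00931). PTCH1 and SPAM1 passed for wild type KLF11 (0.0124 and 0.0126) and for no mutant. Since the study chose its group on these arrays, the counts are not independent evidence of direction. With Δ486, 7 of the 13 were higher than with wild type KLF11 and 1 was lower, with a median of 0.19. GOT1, the cytosolic aspartate aminotransferase, read 10.32 and 10.41 with empty vector, 9.68 and 9.59 with wild type KLF11 and 9.91 and 9.93 with Δ486. GYS1, the muscle glycogen synthase, read 7.57 and 7.55, 7.02 and 6.92, and 7.25 and 7.29. Both lay between the other conditions with Δ486, and so did PTCH1, the hedgehog receptor, with a difference from wild type KLF11 of 0.37. ALMS1P1 (0.31), EFR3B (0.26), ZNF277 (0.22) and SPAM1 (0.19) were also higher and CFAP91 (-0.24) was lower, while AOC2 (-0.20), RAET1L (0.06), RBM47 (0.03), RPL27A (-0.02) and USP35 (-0.01) did not pass.

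The other conditions gave the side of the comparison on which each difference lay. Among the 46 clusters, the empty vector mean lay between wild type KLF11 and Δ486 in 28 (60.9%), wild type KLF11 lay between empty vector and Δ486 in 12 (26.1%), and Δ486 lay between the others in 6 (13%). Over all clusters tested these shares were 23.7%, 46.9% and 29.4%, and since the wild type and Δ486 means that define the order also chose the 46, the contrast between these shares is a description only. The A347S mean lay nearer to Δ486 than to wild type KLF11 in 26 of the 46 (56.5%, against 58.2% of all clusters), and the EAPP mean in 27 (58.7%, against 45.3%). Among the 34 higher clusters A347S was nearer to Δ486 in 22, and among the 12 lower ones in 4.

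Differences that share no array can be set beside each other. Across the 20961 clusters, Δ486 minus wild type KLF11 and A347S minus empty vector correlated at a Pearson r of 0.24 and a Spearman rho of 0.27, and at 0.33 and 0.35 among the 10481 clusters at or above the median level. With EAPP minus empty vector the values were 0.23 and 0.25, and 0.28 and 0.28 at or above the median level. With A347S minus EAPP they were lower, at 0.17 and 0.20, and 0.29 and 0.31 at or above the median level. After cyclic loess, r over all clusters was 0.20 (A347S minus empty vector), 0.19 (EAPP minus empty vector) and 0.15 (A347S minus EAPP). Clusters are not replicates, and all arrays share the line, the viral vector and the array design. The same difference taken from the arrays numbered 1 and from those numbered 2 correlated at 0.13 (rho 0.15), and at 0.26 (rho 0.28) with the numbers crossed.

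**Figure D5:**
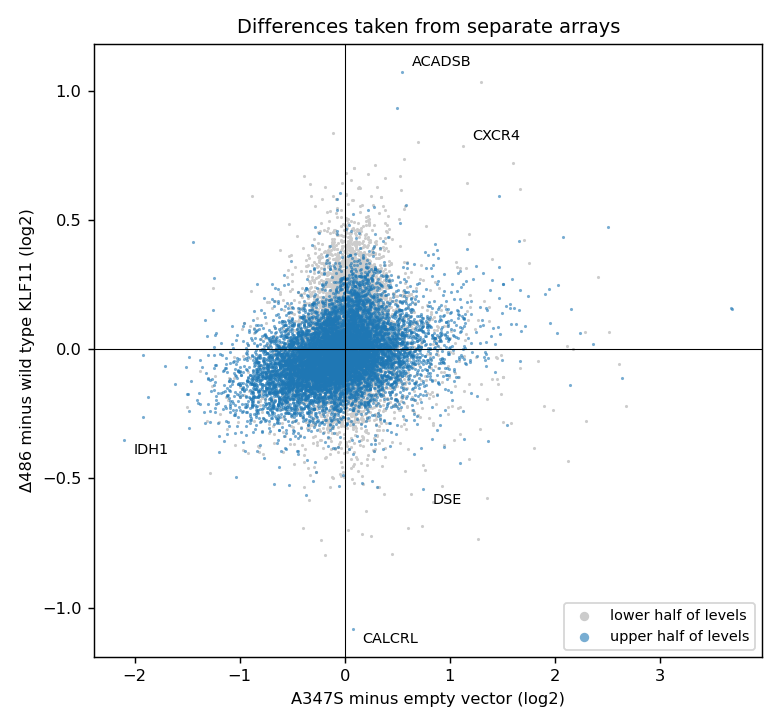
Difference between Δ486 and wild type KLF11 (log2, vertical axis) against the difference between A347S and empty vector (log2, horizontal axis), 1 point per transcript cluster, taken from 4 separate pairs of arrays. The cloud tilts weakly upward among clusters at or above the median level (blue), with IDH1 low on both axes, CXCR4 and ACADSB high on both, and CALCRL low on the vertical axis only.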

How the data were processed

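Total RNA of the 10 samples was hybridised to Affymetrix Human Gene 1.0 ST arrays. The authors deposited log2 expression values per transcript cluster, made by robust multi-array averaging (RMA); the submitters' processing notes name Partek 6.6. No raw intensities were used. The precision is limited by the 2 arrays per condition. Gene symbols came from the platform annotation, and 19198 clusters matched RefSeq by gene number with 0 names changed; of the 20961 clusters with a symbol, 19229 had 1 symbol and 1732 had several, from which no gene was named.

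With limma 3.58.1 (R 4.3.3), a linear model with a mean per condition was fitted to the 10 arrays (5 residual and 4.54 prior degrees of freedom). The contrast KLF11-486 minus KLF11 was moderated by empirical Bayes and adjusted by Benjamini-Hochberg over the 20961 clusters; a call needed an adjusted p under 0.05 and 1.5-fold. The procedure was tested on simulated data. Figures were drawn in Python 3.11.15 with matplotlib 3.10.9.

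Named genes were, among those with 1 symbol, an unadjusted p under 0.05 and no overlap between conditions, the 12 largest differences in each direction at or above the median level and the 4 largest in each direction below it. Also named, whatever their p or overlap, were clusters called with a variance trend and robust moderation, the 3 smallest p-values of each list described, KLF11, and the genes placed with wild type KLF11 alone. Other members of the lists were named after their values were seen. The members and the 40 lists were chosen with earlier results of these data known, and lists carry counts and medians with no set test. Alternatives changed moderation, test, arrays fitted, scaling, filter, clusters, fold, replicate block and arrays left out.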

Additional observations from a re-analysis of the deposited data

How the results depend on the processing

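The count at an adjusted p under 0.05 and 1.5-fold was 0 as reported, 6 with a variance trend and robust moderation, 2 after quantile normalization (ACADSB and CA2), and 1 (CA2) after cyclic loess, with arrays centred on the median, without dim clusters, with 1 cluster per gene and with a crossed replicate block. Leaving out 1 array gave 0 to 1, the 1 being ACADSB without the first KLF11-486 array. The count at an unadjusted p, 2211, was 1459 by the methods' t-test and 1282 to 3082 with 1 array left out. The count with 1.5-fold added, 46, was 22 by the methods' t-test, 25 without dim clusters, 93 with clusters without a symbol, 0 at a log2 difference of 1.5, and 57 to 192 with 1 array left out (in which the lone array of a condition is assumed to vary like the others; 70 and 105 without the first and second KLF11 array, 57 and 192 without the first and second KLF11-486 array). The t-test of 2 arrays against 2 called 0 after Benjamini-Hochberg, and an exact permutation test of such groups cannot go below p = 0.333. The causes of these shifts were not tested.

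Same-numbered arrays of KLF11 and KLF11-486 deviated with r = -0.14, so the numbers did not pair these arrays. Over all pairs of conditions, r lay between -0.35 (KLF11-486 with KLF11-EAPP) and 0.15 (KLF11 with KLF11-EAPP). Whether arrays of different conditions shared an effect was not tested. With the replicate block the counts were 0, 2092 and 46, and with the numbers crossed, an alternative added after seeing the data, 1, 2648 and 48.

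After cyclic loess, list medians that moved by more than the spread between arrays were KLF and SP factors 0.020, numbered ZNF zinc finger genes -0.037, cancer-testis and germline genes 0.013, tricarboxylic acid cycle and pyruvate entry 0.0017, serine, folate and polyamine metabolism -0.021, hypoxia and glycolysis 0.0071, G2/M and mitosis 0.0095, DNA replication -0.027, keratins 0.017, lysosome and sphingolipid 0.013, cytosolic ribosomal proteins 0.014. With arrays centred on the median, list medians that moved by more than the spread between arrays were SIN3-HDAC complex -0.0083, KLF and SP factors 0.021, fatty acid and triglyceride synthesis -0.080, tricarboxylic acid cycle and pyruvate entry -0.073, serine, folate and polyamine metabolism -0.084, hypoxia and glycolysis -0.054, NRF2 and glutathione -0.11, G2/M and mitosis -0.063, DNA replication -0.096, epithelial junction and mesenchymal transition -0.081, EGFR-MAPK and immediate early -0.0056, lysosome and sphingolipid -0.053. With 1 array left out, such medians ranged as follows: KLF and SP factors 0.025 to 0.12, fatty acid and triglyceride synthesis -0.075 to -0.051, tricarboxylic acid cycle and pyruvate entry -0.035 to 0.0032, serine, folate and polyamine metabolism -0.081 to -0.047, hypoxia and glycolysis -0.032 to -0.0056, DNA replication -0.082 to -0.032, p53 targets -0.025 to 0.034, epithelial junction and mesenchymal transition -0.065 to -0.027, interferon and innate response -0.12 to -0.050, respiratory chain and ATP synthase -0.055 to 0.048, genes placed with wild type KLF11 alone 0.13 to 0.21, carcinoma epithelium markers -0.016 to 0.070, blood and endothelial markers 0.031 to 0.18.

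Among the 157 named genes (2489 alternative values), none with an unadjusted p under 0.05 changed direction, whereas RAET1L, RBM47, RPL27A and USP35, near 0, crossed it under some settings. Most of these values could not show a reversal. Changes of moderation or replicate block leave the difference as it was. Where the arrays do not overlap, as the genes named by size required, leaving out 1 array cannot reverse it. The values that passed the adjusted threshold together with 1.5-fold were all of ACADSB, CA2, CALCRL, CXCR4 or FOXO4.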
